A study of Mus musculus with 6 samples.

Results

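Cirbp and Rbm3 encode the cold-inducible RNA-binding proteins CIRP and RBM3. They were chosen by symbol, with earlier results of these data known, and are 2 of the 28773 genes listed for each sample. The data are bulk RNA-seq of splenic CD8+ T cells that were taken from mice on day 35, with 3 samples in each of 2 groups. MWA+PBS mice (samples 1 to 3) received microwave ablation of the tumor, a local heat treatment, and PBS as the vehicle. MWA+2DG mice (samples 4 to 6) received the same ablation and 2-deoxy-D-glucose (2DG), a glucose analogue that inhibits glycolysis. The study counted days from tumor implantation. The ablation came weeks before day 35, and the last injection of 2DG or PBS came days before it. The study used female mice with implanted tumors, among them wild-type BALB/c and C57BL/6 mice that were mostly 6 weeks old at the outset. Which of these strains and tumor lines the sequenced mice had, and whether mice were pooled, was not found in the sources used here. Neither group was without ablation, so the comparison is of 2DG against PBS in ablated mice and not of ablation. Levels are FPKM, fragment counts corrected for the length of the transcript and for the mapped total of the sample. Nothing in the labels says that the samples of a group came from separate mice, so p-values measure the spread between these samples, which may be technical.

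CIRP and RBM3 are small nuclear and cytoplasmic proteins with an RNA recognition motif followed by an arginine- and glycine-rich tail. Mild cooling raises both in many mammalian cells and heat lowers them, and both are known for binding mRNAs and changing their stability, translation and choice of polyadenylation site. CIRP also helps keep the amplitude of the circadian clock, moves to stress granules under stress, and, once released from cells, acts on the TLR4 receptor complex as an inflammatory signal. RBM3 is known for raising global translation in the cold and for protecting neurons.

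The coding sequences of the pair are shown first because they bear on whether sequenced fragments of Cirbp and Rbm3 can be told apart. Both come from GENCODE M21 transcripts on GRCm38. The coding sequence of Cirbp-202 is 516 bases and that of Rbm3-201 is 462 bases, and in a global alignment 330 of 450 aligned bases were identical (73.3%). The longest run of identical bases was 11. The most alike stretch of 60 bases, coding bases 196 to 255 in each, held 48 identical bases, and the 12 that differ are in capitals:
Cirbp: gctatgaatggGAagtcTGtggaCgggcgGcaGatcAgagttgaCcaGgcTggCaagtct
Rbm3: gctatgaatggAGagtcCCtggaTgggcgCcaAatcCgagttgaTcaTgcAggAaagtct
Differences are thus spread through even the closest stretch of the pair.

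Cirbp (ENSMUSG00000045193) lies on the plus strand at chr10:80165985-80172786 (GRCm38). GENCODE M21 gives it 7 transcripts, of which 2 are protein coding, 1 is a target of nonsense-mediated decay and 4 retain an intron. Rbm3 (ENSMUSG00000031167) lies on the minus strand at chrX:8138975-8145880, with 11 transcripts, of which 6 are protein coding. Each FPKM is 1 value per gene, so coding and intron-retaining transcripts of a gene were not separated.

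Cirbp rose in MWA+2DG. Its level was 7.24, 8.48 and 7.47 FPKM in the MWA+PBS samples and 21.25, 20.99 and 20.74 FPKM in the MWA+2DG samples. The groups did not overlap, as was so for 52.1% of the 12444 genes tested, and the lowest MWA+2DG sample stood well above the highest MWA+PBS sample. The group means were 7.73 ± 0.660 FPKM (SD, n = 3) and 20.99 ± 0.255 FPKM (SD, n = 3), a 2.72-fold difference. On log2(FPKM + 1) the fold change was 1.34 ± 0.07 (SE; 95% interval 1.18 to 1.49; limma adjusted p = 7.98e-06). An adjusted p under 0.05 was reached by 39.4% of the genes tested, 22.3% higher and 17.1% lower in MWA+2DG, so the call alone does not set Cirbp apart. The rule of the study's methods, P under 0.05 and a log2 change of more than 0.25 either way, also called Cirbp and not Rbm3, and called 38.2% of genes (21.6% higher, 16.6% lower). As for size, 64 genes, Cirbp included, or 0.514% of those tested, had a log2 fold change at least as high. Cirbp was chosen with earlier results of these data known, so this place among all genes describes it and tests nothing. Ordered by level among the 28773 genes, Cirbp stood at places 5167 to 5754 in MWA+PBS against 2056 to 2141 in MWA+2DG.

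Rbm3 did not pass the test, and its levels were far more even. They were 46.44, 48.68 and 44.22 FPKM in the MWA+PBS samples and 45.77, 41.38 and 45.21 FPKM in the MWA+2DG samples. The groups overlapped, and the lowest of the 6 values, in sample 5, belonged to MWA+2DG. The means were 46.4 ± 2.23 FPKM and 44.1 ± 2.39 FPKM (SD, n = 3 each), and the log2 fold change was -0.07 ± 0.06 (SE; 95% interval -0.22 to 0.07; limma adjusted p = 0.385). An increase of the size seen in Cirbp lies outside this interval, and a small decrease lies inside it. Rbm3 stood at places 739 to 797 in MWA+PBS against 792 to 892 in MWA+2DG, above Cirbp in each of the 6 samples.

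**Figure D1:**
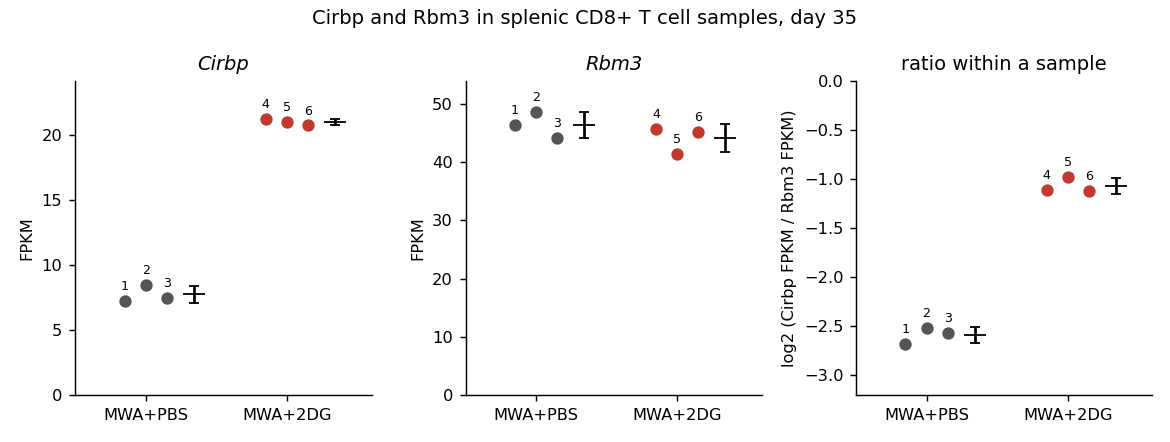
FPKM of Cirbp (left) and Rbm3 (middle) and the log2 ratio of Cirbp FPKM to Rbm3 FPKM (right) in each sample, numbered as in the text, with the group mean and SD (n = 3) as bars beside the points. The 3 MWA+2DG samples lie above the 3 MWA+PBS samples for Cirbp and for the ratio, and the groups overlap for Rbm3.

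Within a sample, Rbm3 was the higher gene of the pair throughout, and its lead was smaller in MWA+2DG. There were 6.41, 5.74 and 5.92 FPKM of Rbm3 per FPKM of Cirbp in the MWA+PBS samples and 2.15, 1.97 and 2.18 in the MWA+2DG samples. The log2 ratio of Cirbp to Rbm3 was -2.59 ± 0.083 (SD, n = 3) in MWA+PBS and -1.07 ± 0.079 (SD, n = 3) in MWA+2DG. It differed by 1.52 ± 0.066 (SE), or 2.87-fold, and the groups did not overlap (two-sided exact permutation test, p = 0.1, the smallest that 3 samples against 3 allow). A scaling factor of a whole sample cancels in this ratio.

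Markers of other cell types moved between the groups, and in bulk RNA fewer cells of a type and less RNA per cell cannot be told apart. Cd8a was 231.5 ± 6.96 FPKM in MWA+PBS against 366.4 ± 9.47 FPKM in MWA+2DG, and the 19 T lineage markers summed to between 2271 and 2427 FPKM and between 3220 and 3475 FPKM, with 18 higher. Neutrophil markers summed to between 66.7 and 91.0 FPKM in MWA+PBS against between 1577 and 1757 FPKM in MWA+2DG (10 of 11 tested higher), and B cell markers to between 12.4 and 13.5 FPKM and between 75.9 and 81.2 FPKM (10 of 10 higher). Monocyte and macrophage markers went the other way, from between 747 and 809 FPKM to between 182 and 200.4 FPKM (13 of 14 lower, 1 higher), as did erythroid markers, from between 294 and 350.0 FPKM to between 67.2 and 85.3 FPKM (9 of 9 lower). Plasma cell markers (2 of 4 lower, 0 higher), dendritic cell markers (3 of 4 lower, 0 higher), NK cell markers (2 of 4 higher, 1 lower) and CD4 T cell markers (2 of 5 lower, 0 higher) moved less uniformly. For lists this short such counts say little beside the 22.3% of all genes tested that rose and the 17.1% that fell. The 2 higher genes of the NK cell list were Eomes and Nkg7, and the lower gene was Ncr1. In none of these lists was a marker listed at 0 in all 6 samples. The part of these cells in the levels of Cirbp and Rbm3 was not tested.

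Each sample was also scaled to the mean log2(FPKM + 1) of its T lineage markers. This scaling moved the median log2 fold change of all genes tested from 0.05 to -0.42. Cirbp stayed higher under it, at 0.87 (limma adjusted p = 2.85e-05). Rbm3 was then lower at -0.54 (limma adjusted p = 5.61e-05), a value close to the shifted median of all genes. Rbm3 was also called lower, at -0.19 (limma adjusted p = 0.0243), after trends of fold change on GC content and transcript length were removed. The longest transcript of Rbm3 is 2792 bases with a GC content of 41.5%, and that of Cirbp is 1321 bases with 53.7%. Cirbp was 1.37 (limma adjusted p = 6.17e-06) after the same correction.

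**Figure D2:**
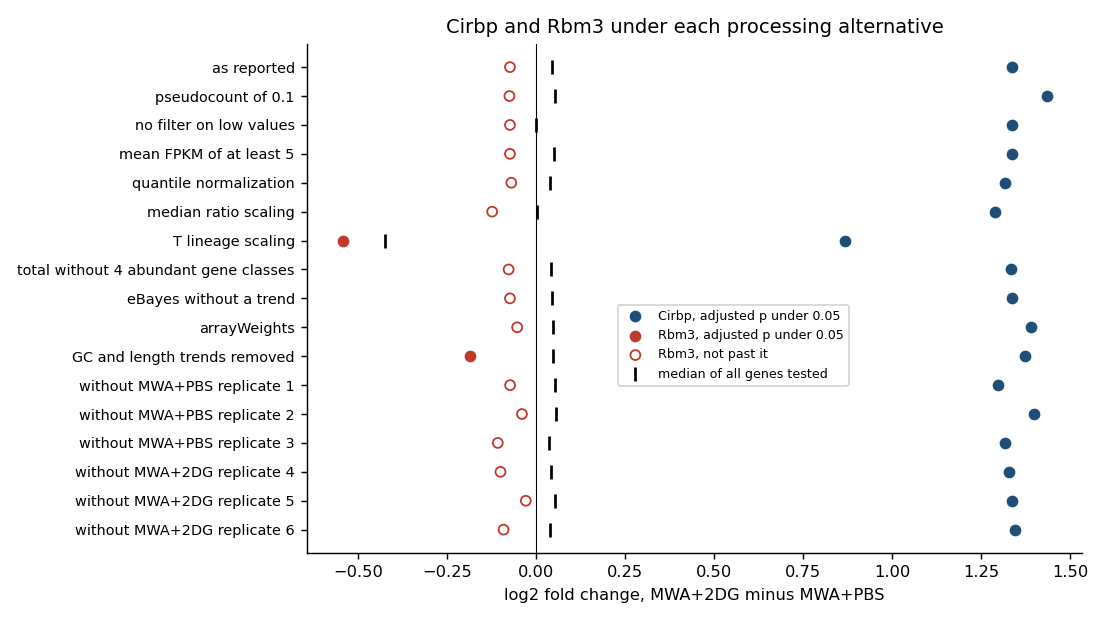
Log2 fold change (MWA+2DG minus MWA+PBS) of Cirbp and Rbm3 as reported and under the 16 processing alternatives, with filled points for an adjusted p under 0.05 and a black tick at the median of all genes tested. Cirbp lies between 0.87 and 1.43 and is filled in every row, and Rbm3 lies between -0.54 and -0.03 and is filled in the rows for T lineage scaling and for GC and length trends.

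The level of Rbm3 is less certain than that of Cirbp because the mouse genome holds near-identical copies of it. At an identity of at least 95% over at least 100 bases, 0 other genes matched the transcripts of Cirbp and 5 matched those of Rbm3. The processed pseudogenes Rbm3-ps (99.4% identical over 465 bases), Gm10156 (98.5%), Gm48583 (98.7% over 223 bases) and Gm13624 (96.1%) were listed beside Phospho2, a protein-coding phosphatase gene with a matching stretch of 380 bases (97.4%). Fragments from Rbm3 mRNA can map to these copies, and how the authors' counting shared such fragments is not stated.

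Most of the copies were listed with FPKM that may hold fragments of Rbm3, and these values were lower or did not pass the test in MWA+2DG. Rbm3-ps was 3.69, 5.20 and 3.78 FPKM in MWA+PBS against 2.71, 2.40 and 2.57 FPKM in MWA+2DG, with no overlap, and was called lower (log2 fold change -0.54, limma adjusted p = 0.00909). Gm48583 was 16.22, 12.10 and 14.38 FPKM and 11.45, 11.70 and 10.03 FPKM, again with no overlap and called lower (log2 fold change -0.33, limma adjusted p = 0.0433). Gm10156 was 18.76, 15.21 and 15.43 FPKM and 13.82, 10.50 and 16.20 FPKM, and its groups overlapped (log2 fold change -0.28, limma adjusted p = 0.173). The remaining pseudogene, Gm13624, was at most 0.13 FPKM in any sample. Phospho2 had 0.11 on the log2 scale (limma adjusted p = 0.194).

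Added to Rbm3, the 4 pseudogenes gave sums of 85.2, 81.2 and 77.9 FPKM in MWA+PBS against 73.9, 66.0 and 74.0 FPKM in MWA+2DG. The groups of this sum did not overlap, unlike those of Rbm3 alone. The copies held between 40.0% and 45.5% of it in MWA+PBS against between 37.3% and 38.9% in MWA+2DG, and since FPKM is scaled to each gene's own length, the sum is not a count of fragments. Its log2 fold change was -0.19, and its limma adjusted p of 0.0508 did not pass the threshold. With this sum in place of Rbm3, the log2 ratio of Cirbp to Rbm3 differed by 1.64 between the groups. Rbm3 also shares 94 exonic bases with the antisense gene Rbm3os, which was 1.75, 3.14 and 1.59 FPKM in MWA+PBS against 1.11, 0.88 and 1.68 FPKM in MWA+2DG. Whether strand entered the counting is not given, so fragments of the shared bases cannot be assigned.

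**Figure D3:**
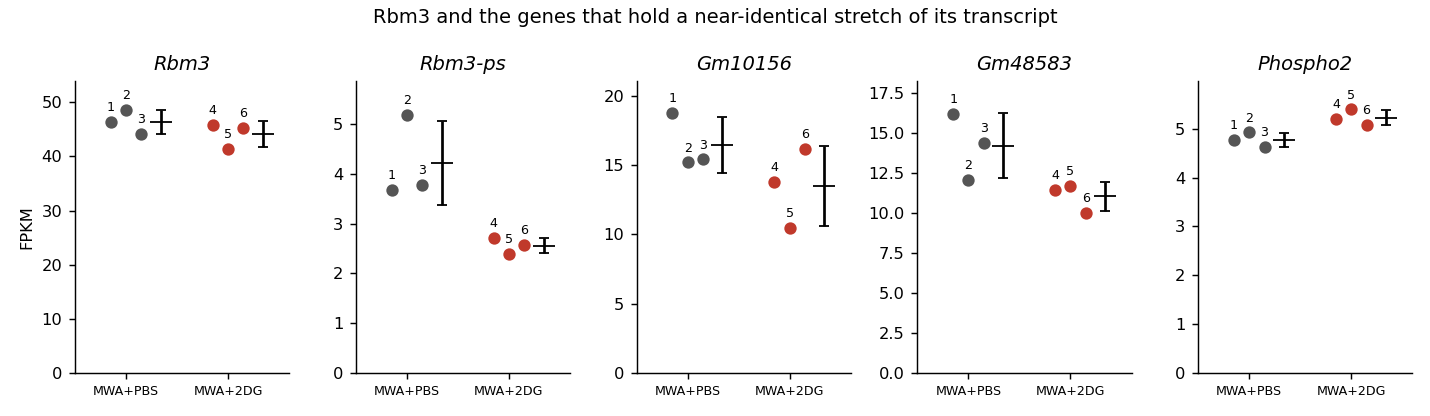
FPKM of Rbm3, 3 of its processed pseudogenes and Phospho2 in each sample, with the group mean and SD (n = 3) as bars and a separate axis from 0 for each gene. The groups overlap for Rbm3 and Gm10156, and the MWA+2DG samples lie below the MWA+PBS samples for Rbm3-ps and Gm48583 and above them for Phospho2.

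The promoter of Cirbp is known for a short element, TCCCCGCC, through which the transcription factor Sp1 raises Cirbp in mild cold. RefSeq gives Cirbp a pair of promoter windows on GRCm38.p6, and the element was found at 247 bases before the start in the upstream window and 0 times in the other. Below are 189 bases of the upstream window, chr10:80167589-80167777 on the plus strand, which ends 61 bases before the RefSeq start, shown because Cirbp is the member whose transcript level rose, with the element in capitals:
Cirbp promoter: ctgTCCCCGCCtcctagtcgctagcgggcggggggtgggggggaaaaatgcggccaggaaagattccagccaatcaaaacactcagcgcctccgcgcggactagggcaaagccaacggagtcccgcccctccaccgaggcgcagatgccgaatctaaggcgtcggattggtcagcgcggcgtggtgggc
Searched on both strands, the element was in 4.64% of 32851 mouse promoter windows of the same length. The GC box GGGCGG had 3 matches in the 250 bases before the start, the first at 225 bases and none of them overlapping the element, had 4 in the other window, and was in 32.7% of windows. The CCAAT box CCAAT had 2 matches in the upstream window and 0 in the other (33.8% of windows). The heat shock element core GAANNTTC (6.69% of windows) and the E-box CACGTG (6.02% of windows) had 0 matches in either Cirbp window. A match is a description of letters, and binding was not measured here.

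The 12 listed genes that share an RNA recognition motif with Cirbp and Rbm3 were called about as often as genes in general. Of these, 2 rose, 2 fell and 8 did not pass the test, where 22.3% of all genes tested rose and 17.1% fell, and the median log2 fold change was 0.10 against 0.05 for all genes tested. Without MWA+PBS replicate 2, and also with samples weighted by arrayWeights, 4 rose and 2 fell, where these settings called 41.5% and 50.7% of all genes tested. Rbmx, an X-linked splicing regulator of the same family, was 12.65, 15.68 and 11.70 FPKM in MWA+PBS against 21.62, 19.13 and 20.39 FPKM in MWA+2DG (log2 fold change 0.58, limma adjusted p = 0.00388). Rbm4b, a splicing and translation regulator, rose by 0.53 on the log2 scale (limma adjusted p = 0.00263). Under T lineage scaling, which called 72.9% of all genes tested lower, neither rise passed the test, and 0 genes of the list were higher and 10 lower. Rbm14, a nuclear coactivator, fell by 0.50 on the log2 scale (limma adjusted p = 0.00294). Hnrnpab, which packages nuclear mRNA, fell by 0.20 (limma adjusted p = 0.0125), a call lost without MWA+PBS replicate 1 (limma adjusted p = 0.0615). No gene of this list had a fold change as large as that of Cirbp.

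Proteins with a cold shock domain, a fold related to bacterial cold shock proteins and unrelated to that of CIRP and RBM3, include abundant genes that fell and a scarce gene that was higher. Of 8 such genes, 4 were expressed highly enough to be tested, and 0 rose and 2 fell (median log2 fold change -0.25), where 22.3% of all genes tested rose and 17.1% fell. Ybx1, an abundant mRNA-packaging protein, was 127.0, 117.2 and 123.5 FPKM in MWA+PBS against 87.34, 83.23 and 83.00 FPKM in MWA+2DG, with no overlap (log2 fold change -0.53, limma adjusted p = 0.000253). Ybx3, its relative, fell from 20.5 ± 0.881 to 11.3 ± 0.604 FPKM (SD, n = 3; log2 fold change -0.81, limma adjusted p = 6.31e-05). Carhsp1, a cytoplasmic RNA-stability factor, had 0.02 (limma adjusted p = 0.856). Lin28a, an RNA-binding repressor of let-7 microRNAs that was too low to be tested and is named after its values were seen, was 0.02, 0.05 and 0.07 FPKM in MWA+PBS against 0.86, 0.89 and 0.89 FPKM in MWA+2DG, with no overlap. Without the filter on low values, all 8 genes were tested, 1 rose and 2 fell, and the list median was 4.58e-05. That setting called 9.03% of all genes tested higher and 9.27% lower.

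Heat raises the targets of heat shock factors, and of these factors and targets 17 of 20 tested fell, 0 rose and the median log2 fold change was -0.93, where 17.1% of all genes tested fell and 22.3% rose. The list summed to between 2757 and 2938 FPKM in MWA+PBS against between 1203 and 1264 FPKM in MWA+2DG. Hspa1b, an inducible HSP70 chaperone, was 244.2, 219.9 and 232.8 FPKM in MWA+PBS against 3.68, 3.92 and 3.43 FPKM in MWA+2DG (log2 fold change -5.64, limma adjusted p = 1.72e-08). Its near-identical neighbour Hspa1a had -5.34, and how fragments were shared between them is uncertain. Hsph1, an HSP110 co-chaperone, fell by 2.36 on the log2 scale. Of the most abundant members, Hsp90ab1 fell from 892 ± 35.0 to 508 ± 15.0 FPKM and Hspa8 from 537 ± 22.2 to 287 ± 10.2 FPKM (SD, n = 3 each). Some genes of the list ran the other way, and they are named after their values were seen. Serpinh1, a collagen chaperone, was 0.65, 2.20 and 0.59 FPKM in MWA+PBS against 1.81, 1.5 and 2.16 FPKM in MWA+2DG (log2 fold change 0.47, limma adjusted p = 0.198), and the list had 1 gene higher with arrayWeights and without MWA+PBS replicate 2. Cryab, a small heat shock protein too low to be tested, was 0.38, 0.49 and 0.16 FPKM against 1.09, 0.84 and 0.67 FPKM, with no overlap.

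CLK kinases phosphorylate SR splicing factors and lose activity with warming, and this pathway is known for temperature-dependent splicing of Cirbp itself. All 22 genes of the list were tested, and 6 rose, 1 fell and 15 did not pass the test (median log2 fold change 0.17), a share near the 39.4% called among all genes tested. Srsf5 was 116.1, 148.4 and 106.9 FPKM in MWA+PBS against 177.9, 165.1 and 184.0 FPKM in MWA+2DG (log2 fold change 0.51, limma adjusted p = 0.0113). Srsf1 rose from 48.9 ± 1.22 to 66.1 ± 1.93 FPKM (log2 fold change 0.43, limma adjusted p = 0.000494), and under T lineage scaling it turned to -0.04 and Srsf5 was no longer called at 0.04. Tra2b, an SR-like splicing activator, fell by 0.40 on the log2 scale (limma adjusted p = 0.00227). Hnrnpf, the most abundant gene of the list, had 0.11 (limma adjusted p = 0.202). Without MWA+PBS replicate 2, 10 genes were higher and 1 lower, where 41.5% of all genes tested were called. With arrayWeights 13 were higher and 3 lower, where 29.1% and 21.5% of all genes were. T lineage scaling lowers every gene alike, and the 0 higher and 16 lower under it stand beside 72.9% of all genes lower.

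Of the 16 stress granule partners, 2 rose, 2 fell and 12 did not pass the test (median log2 fold change 0.02), against 39.4% called among all genes tested. Under T lineage scaling 1 was higher and 15 lower, where 72.9% of all genes tested were lower. Tia1, which nucleates stress granules, rose from 5.40 ± 0.323 to 9.75 ± 0.349 FPKM (log2 fold change 0.75, limma adjusted p = 0.000116) and stayed higher under T lineage scaling. Its relative Tial1 had a log2 fold change of 0.25 with a limma adjusted p of 0.0487, a call that was lost in 9 of 16 alternatives and reversed to -0.22 under T lineage scaling. The call of Tial1 was lost without MWA+PBS replicate 1 or 3 and without MWA+2DG replicate 4, 5 or 6 (log2 fold change between 0.20 and 0.27). Fxr1, a translation regulator, fell by 0.46 on the log2 scale (limma adjusted p = 0.00291). The poly(A)-binding protein Pabpc1, at 319.8 ± 23.9 and 278.6 ± 17.7 FPKM, had -0.20 (limma adjusted p = 0.0790) and was called lower in 5 of 16 alternatives, namely without MWA+PBS replicate 2 (-0.26, limma adjusted p = 0.0276), with quantile normalization (-0.31), with T lineage scaling (-0.67), with arrayWeights (-0.24) and with GC and length trends removed (-0.27). The RNA helicase Ddx3x was at 88.7 ± 3.66 and 89.8 ± 3.13 FPKM.

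Of 6 receptors and binding partners of extracellular CIRP, 5 were tested, and 4 fell, 0 rose and 1 did not pass the test (median log2 fold change -0.64), where 17.1% of all genes tested fell and 22.3% rose. Cd14, a co-receptor of TLR4, was 16.05, 15.81 and 14.33 FPKM in MWA+PBS against 2.84, 2.34 and 3.12 FPKM in MWA+2DG (log2 fold change -2.13, limma adjusted p = 4.65e-06). Tlr4 fell from 4.47 ± 0.257 to 2.52 ± 0.298 FPKM (log2 fold change -0.64, limma adjusted p = 0.00107), and Ly96, the MD-2 subunit of its complex, from 2.14 ± 0.437 to 0.827 ± 0.450 FPKM (log2 fold change -0.80, limma adjusted p = 0.0131). Txn1, the redox protein thioredoxin, fell by 0.48 on the log2 scale (limma adjusted p = 0.0387), and its call was lost without MWA+PBS replicate 1 or 2 or any of the MWA+2DG replicates 4, 5 and 6 (log2 fold change between -0.55 and -0.34). Il6ra, a chain of the interleukin-6 receptor, was 27.08, 24.84 and 27.19 FPKM and 24.70, 26.75 and 24.51 FPKM and did not pass the test (limma adjusted p = 0.498). Cd14, Tlr4 and Ly96 are myeloid genes, and the monocyte and macrophage markers were lower in the same samples, at between 182 and 200.4 FPKM against between 747 and 809 FPKM in MWA+PBS, while neutrophil markers, also myeloid, were higher at between 1577 and 1757 FPKM against between 66.7 and 91.0 FPKM. Their part in this list was not tested. Trem1, a myeloid receptor too low to be tested, was 0.41, 0.78 and 0.38 FPKM in MWA+PBS against 1.08, 0.83 and 0.86 FPKM in MWA+2DG, with no overlap and in the other direction.

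CIRP binds transcripts of the circadian clock, of which 16 of 21 were tested, 2 rose, 4 fell and 10 did not pass the test (median log2 fold change -0.01), about the 39.4% called among all genes tested. Under T lineage scaling 0 were higher and 14 lower, where 72.9% of all genes tested were lower. Nfil3, a repressor of clock output and immune regulator, fell from 3.28 ± 0.442 to 1.46 ± 0.415 FPKM (log2 fold change -0.81, limma adjusted p = 0.00346). Per1, a core repressor, was 11.79, 10.01 and 12.21 FPKM in MWA+PBS against 6.93, 6.85 and 6.47 FPKM in MWA+2DG (log2 fold change -0.67, limma adjusted p = 0.000594). Bhlhe40, a repressor of CLOCK targets, fell by 0.51 on the log2 scale (limma adjusted p = 0.00176). Csnk1d, a kinase of PER proteins, had -0.12 (limma adjusted p = 0.0760), and Nr1d2, the repressor REV-ERB beta, had 0.12 (limma adjusted p = 0.209).

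**Figure D4:**
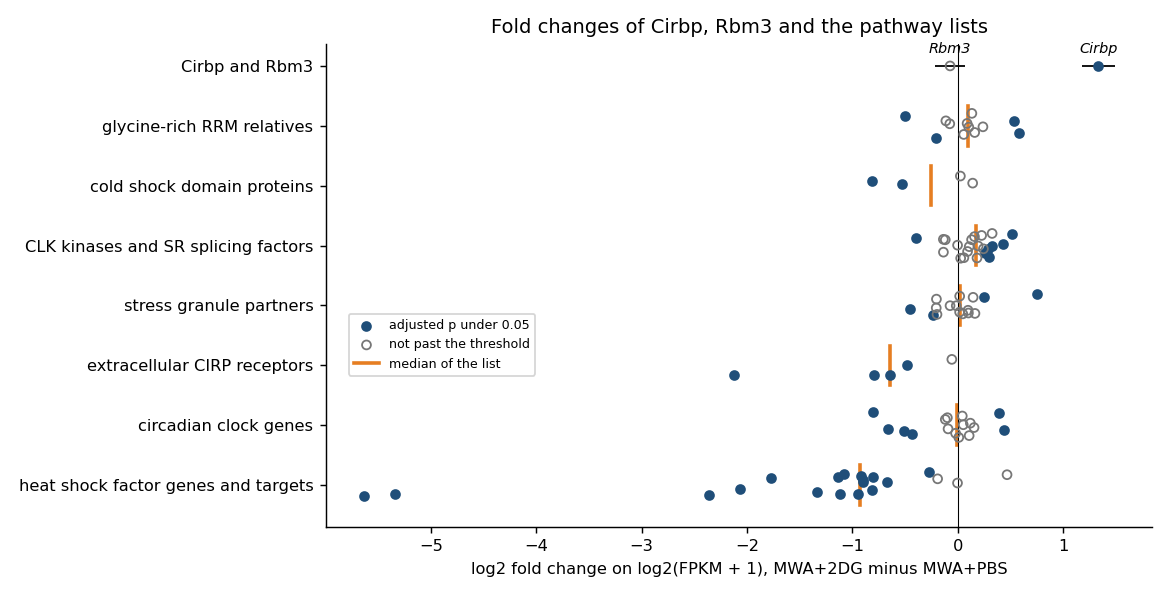
Log2 fold change on log2(FPKM + 1), MWA+2DG minus MWA+PBS, of Cirbp and Rbm3 (with 95% intervals) and of each tested gene of the 7 pathway lists, with filled points for a limma adjusted p under 0.05 and an orange line at the list median. Cirbp lies right of every gene of the lists, Rbm3 lies near 0, and heat shock targets reach -5.64.

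Over the 6 samples, the gene whose log2(FPKM + 1) ran most alike that of Cirbp was Il18rap, a chain of the interleukin-18 receptor, followed by Ifit3, Ly6g, 5830411N06Rik and Nabp1 (Pearson's r = 0.999 each). The most opposite were App, Abcc3 and Renbp (r between -0.9999 and -0.9996). Such values are common where 2 groups stand apart, since 1182 of 12443 other genes had r above 0.95 with Cirbp and 1167 had r below -0.95. Among the 5 most alike, Ly6g is a neutrophil surface gene, with a mean of 0.537 FPKM in MWA+PBS against 19.3 FPKM in MWA+2DG.

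Rbm3 had fewer genes that ran with it, 45 with r above 0.95 and 32 below -0.95. The most alike were Ptpn6, the phosphatase SHP-1 (r = 0.994), Exoc6 (r = 0.992), the translation initiation helicase Eif4a1 (r = 0.992), the cell cycle inhibitor Cdkn1b (r = 0.988) and Chmp2a (r = 0.987), and the most opposite were Purb, AU020206 and Sh3pxd2a. None of these 8 genes passed the test between the groups. Cirbp and Rbm3 themselves had r = -0.48 over the same 6 samples, which share their libraries and the group difference of Cirbp.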

How the data were processed

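CD8+ T cell RNA was measured in 6 samples as poly(A) RNA-seq, and the deposited values were FPKM per gene that the authors computed with StringTie and ballgown after fastp and HISAT2. The submitters' processing notes name cutadapt 1.9, HISAT2 2.0.4, UMI-tools, StringTie 1.3.4d and the build mm9. The annotation, and whether strand and molecular identifiers entered the counting, are not stated in these sources. FPKM, at 2 decimals, keeps no depth, so the depth of a sample is unknown and intervals of counting error cannot be had. FPKM totals were between 291803 and 313257, and mitochondrial genes held between 19.4% and 22.8% of them.

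Gene IDs were matched to GENCODE M21 (28689 with a symbol, 84 without), whose GRCm38 coordinates are printed. The fit used limma 3.58.1 (R 4.3.3; lmFit, eBayes with a trend) on log2(FPKM + 1) for genes with a mean FPKM of at least 1, without covariates, two-sided, with Benjamini-Hochberg adjustment over all 12444 genes. The pseudocount understates the change of low genes. The script was tested on simulated data. Near copies were sought with BLAST.

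Named genes were both members, the called RNA recognition motif relatives, the tested cold shock domain genes (1 of them not reported here) and CIRP receptor genes, in other pathway lists the 3 called genes of largest change and the 2 of highest mean FPKM, the 5 most alike and 3 most opposite genes by Pearson's r, Cd8a and Cd3e. Cd3e, a T cell receptor chain, was 0.38 higher on the log2 scale (limma adjusted p = 0.0139). Members and lists were chosen with earlier results of these data known. Alternatives were a pseudocount of 0.1, no filter, a mean FPKM of at least 5, 4 scalings, eBayes without a trend, arrayWeights and leaving out each sample. Removal of GC and length trends and addition of pseudogene copies were chosen after seeing the data.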

Additional observations from a re-analysis of the deposited data

How the results depend on the processing

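Cirbp was called higher under all 16 alternatives, with log2 fold changes between 0.87 and 1.43 (limma adjusted p between 1.4e-06 and 0.00011), and between 1.295 and 1.40 without any one sample. Rbm3 lay between -0.11 and -0.03 without any one sample (limma adjusted p between 0.273 and 0.754) and was called lower, at -0.54 (limma adjusted p = 5.61e-05) with T lineage scaling and at -0.19 (limma adjusted p = 0.0243) with GC and length trends removed. The cause was not tested. The ratio differed by 1.41 with FPKM + 1, by 1.64 with pseudogene copies added to Rbm3, and by 1.47 to 1.55 without any one sample.

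With T lineage scaling, which lowers all genes alike, 9480 genes were called by adjusted p and 9061 by the study's rule, against 4907 and 4752 as reported. Of the lists it called 10 RNA recognition motif relatives, 4 cold shock domain, 16 CLK and SR, 16 stress granule and 14 clock genes. It called 76.2% of all genes tested. With a mean FPKM of at least 5, fewer genes were tested (7313), and 2951 (40.4%) and 2562 were called. Of the receptor list 3 genes were then tested and 2 called by adjusted p, and of the clock genes 4 were tested and 1 called. A log2 fold change beyond 1 left 627. With arrayWeights 16 CLK and SR and 7 stress granule genes were called, beside 50.7% of all genes tested. Without any one sample, CLK and SR calls ran from 5 to 11, the highest without MWA+PBS replicate 2. The share of all genes called then ran from 29.5% to 41.5%.

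With T lineage scaling Carhsp1 (-0.44), Srsf1 (-0.043), Hnrnpf (-0.36), Tial1 (-0.22), Ddx3x (-0.45), Nr1d2 (-0.35), Cd3e (-0.091), Purb (-0.34), AU020206 (-0.38) and Sh3pxd2a (-0.35) reversed. Serpinh1 and Phospho2, whose rises were smaller than the shift that this scaling gives every gene, also turned negative. Carhsp1 also reversed with quantile normalization (-0.016), median ratio scaling (-0.019) and arrayWeights (-0.082), and ran from -0.017 to 0.11 without any one sample. Ddx3x reversed with quantile normalization (-0.023), median ratio scaling (-0.033) and GC and length trends removed (-0.068), and ran from -0.010 to 0.051 without any one sample. Il6ra reversed to 0.022 with GC and length trends removed. No paired analysis was possible because samples 1 to 3 and 4 to 6 share no number.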
